A study of Danio rerio with 12 samples.

Results

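Globins and red blood cell genes were followed in zebrafish ovary as a set of 8 genes: the adult alpha globins hbaa1 and hbaa2, the adult beta globins hbba1 and hbba2, alas2, slc4a1a, gata1a and epor. They were taken by symbol from the 26171 named genes of the deposited count table, all 8 had a row, and all 8 were among the 21407 genes with enough counts to be tested. The rule that names them uses no measured value, but the genes were chosen with earlier results of these data known. Polyadenylated RNA of ovary had been sequenced in 12 libraries, 3 for each of 4 groups: adamts9 mutants at 61 days post fertilization (dpf), wild-type fish of the AB strain at 61 dpf, adamts9 mutants at 47 dpf and wild-type AB fish at 47 dpf. The adamts9 gene codes for a protease that is released from cells and cuts proteins of the matrix around them. The labels name neither the mutant allele nor whether replicates were separate animals or pools, so the p-values speak for the spread among these libraries, whose source may be technical. The ages are those of the sample labels, and the series' design text gives others.

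Hemoglobin is a tetramer of alpha and beta globin chains that each hold a heme group, and it makes up most of the protein of a red blood cell. Fish red cells keep their nucleus in the circulation, and blood within a dissected organ adds their messenger RNA to a library. alas2 is the red cell form of the enzyme that starts heme synthesis and limits its rate, and fish that lack it are anemic. slc4a1a encodes band 3, the chloride and bicarbonate exchanger of the red cell membrane. gata1a is the transcription factor that directs red cell differentiation, and epor is the receptor through which erythropoietin keeps red cell precursors alive.

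Total estimated counts were 17612871 to 26031556 in mutants at 61 dpf, 21702522 to 38754919 in wild type at 61 dpf, 16456718 to 29277732 in mutants at 47 dpf and 23723588 to 27678709 in wild type at 47 dpf. Levels are given as CPM, counts divided by library size and scaled by the trimmed mean of M-values (TMM). The limit that a count of 0 allows, taken as 3 counts, lay between 0.0811 and 0.181 CPM in the libraries; it covers counting error only. Marker genes of liver and macrophages were highest in mutant replicate 1 at 47 dpf, those of skeletal muscle in mutant replicate 2 and those of exocrine pancreas in mutant replicate 3 of that age. The level of adamts9 did not separate the genotypes (14.5 ± 1.58 CPM in mutants and 13.8 ± 3.35 CPM in wild type at 61 dpf, and 14.3 ± 1.08 CPM in mutants and 16.7 ± 2.69 CPM in wild type at 47 dpf; SD, n = 3 each), so it does not check the genotype labels. CPM is a share of a library and not an amount. In these bulk libraries fewer red cells, less RNA per red cell and more RNA of other cells cannot be told apart. The 2 ages are separate sets of libraries. Any difference between these sets in collection, dissection or library preparation goes together with age, and its part was not tested.

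Adult globin RNA was about an order of magnitude lower in ovaries at 61 dpf than at 47 dpf, in both genotypes. The counts of the 4 adult globin copies were summed, as the rule for the set asks for near-identical copies. The sum was 29.3, 52.3 and 59.4 CPM in the 3 mutant libraries at 61 dpf and 14.2, 52.5 and 34.7 CPM in the 3 wild-type libraries at 61 dpf. It was 599.5, 793 and 151 CPM in the 3 mutant libraries at 47 dpf and 505, 238 and 299 CPM in the 3 wild-type libraries at 47 dpf. The highest library at 61 dpf lay below the lowest at 47 dpf, so the ages did not overlap, whereas mutant and wild type overlapped at each age. Mutant replicate 3 at 47 dpf was the lowest of the 47 dpf libraries.

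Over both genotypes the summed globins averaged 40.4 ± 17.3 CPM at 61 dpf and 431 ± 244 CPM at 47 dpf (SD, n = 6 each). An exact two-sided permutation test of the 6 against 6 libraries gave p = 0.0021645, the smallest p this design allows. Within each genotype the same exact permutation test of 3 against 3 libraries gave p = 0.1, again the smallest it allows. This comparison of ages over both genotypes was added after the values had been seen. In the edgeR quasi-likelihood model fitted to all genes, the sum was 10.7-fold lower at 61 dpf (log2 fold change -3.41 ± 0.44 SE, adjusted p = 0.0175). In wild type alone it was lower by a log2 fold change of -3.38 ± 0.62 (edgeR adjusted p = 0.0282). In mutants alone the log2 fold change was -3.45 ± 0.62 with an edgeR adjusted p of 0.689, in a comparison in which edgeR called no gene at all. The difference between the change in mutants and that in wild type was -0.07 ± 0.80 on the log2 scale (edgeR adjusted p = 0.987), an error wide enough to hold unequal changes.

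**Figure D1:**
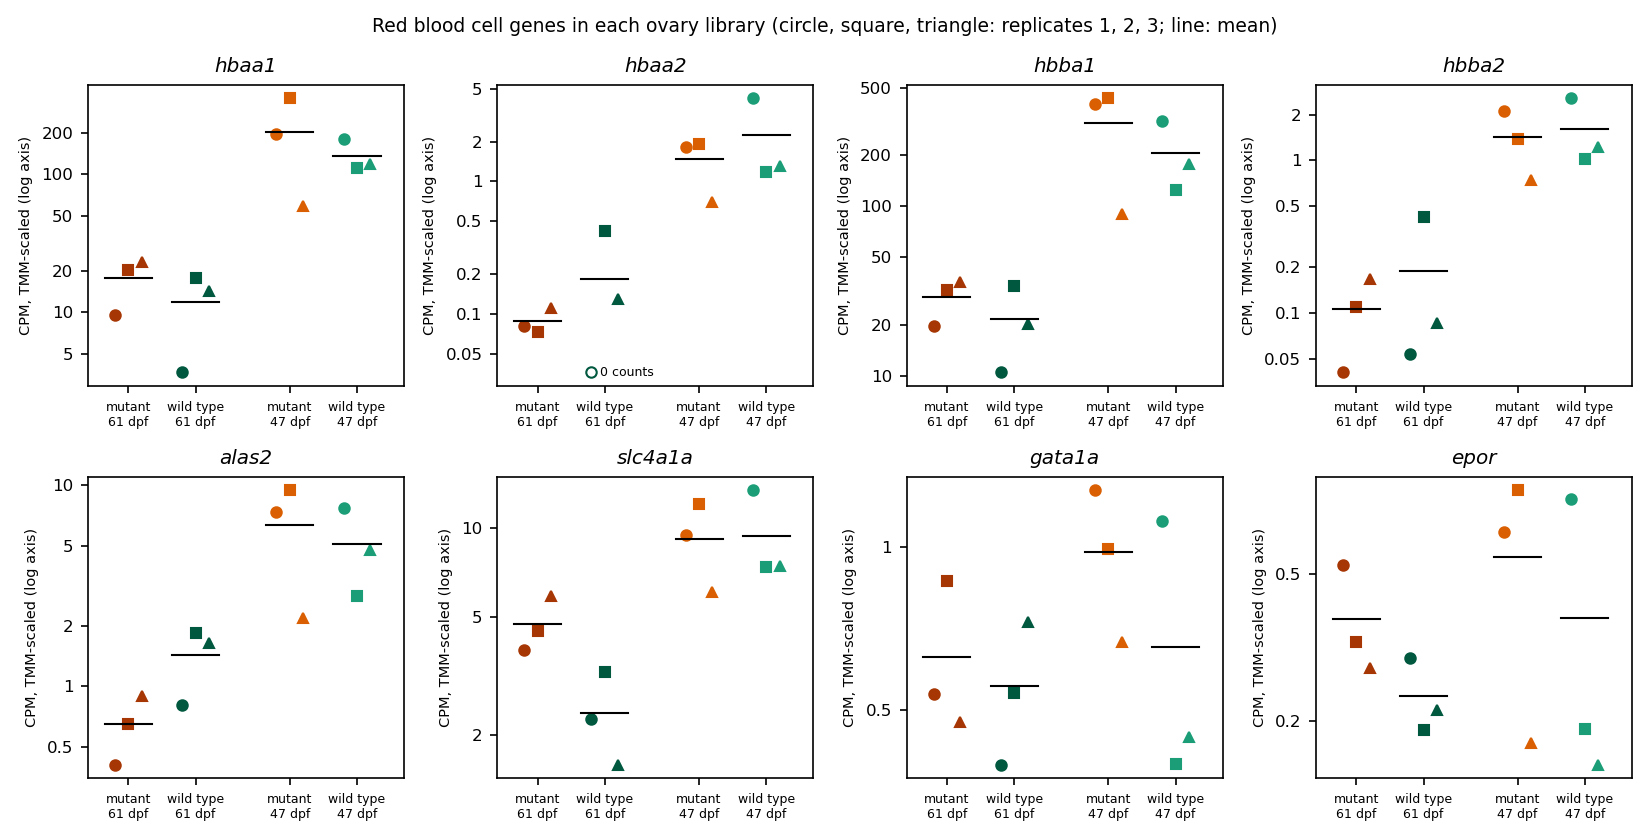
Level of each of the 8 red blood cell genes in each ovary library, in TMM-scaled CPM on a log axis; symbols are replicates 1, 2 and 3, lines are group means, and an open symbol is a library with 0 counts. For the 4 globins, alas2 and slc4a1a the libraries at 61 dpf lie below those at 47 dpf in each genotype, and for gata1a and epor the ages overlap.

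The call for the summed globins over both genotypes was kept when any 1 library was left out (edgeR adjusted p 0.0047 to 0.0480). The call in wild type alone was lost without replicate 1 (edgeR adjusted p = 0.0934), 2 (0.0673) or 3 (0.0578) at 47 dpf or replicate 3 at 61 dpf (0.0833). Over the 6 such fits its log2 fold change lay between -3.83 and -3.01. In mutants the sum was called without replicate 3 at 47 dpf, the library with the least globin RNA in its group (log2 fold change -3.87, edgeR adjusted p = 0.0400).

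Of the 8 genes, 6 fell with age over both genotypes at an edgeR adjusted p under 0.05: all 4 globin copies, alas2 and slc4a1a. Of all genes tested 0.43% were called and 0.182% were called as lower, and DESeq2 called 6 of the 8 and 1.66% of all genes as lower. In wild type alone 3 of the 8 fell in edgeR (hbaa1, hbba1 and slc4a1a), where 1.52% of all genes were called and 0.789% called as lower. DESeq2 called 6 of the 8 in wild type and 3.5% of all genes as lower. In mutants alone edgeR called 0 of the 8 and 0% of all genes. An unadjusted p under 0.05 was reached there by 6 of the 8 and by 3.83% of all genes, and DESeq2 called 5 of the 8 and 0.0654% of all genes as lower. The 6 genes that fell over both genotypes were also those whose libraries at 61 dpf all lay below those at 47 dpf in each genotype. Of all genes tested, 11.6% were separated by age in that direction in wild type, 6.05% in mutants and 0.416% over all 12 libraries. The median log2 fold change of the 8 genes over both genotypes was -2.95, and that of all genes tested was 0.00.

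Over both genotypes the count of 6 was 1 without wild type replicate 1 and 3 without replicate 2 at 47 dpf, and 2 without mutant replicate 2 at 47 dpf. It was 2 without wild type replicate 3, 1 without mutant replicate 1 and 2 without mutant replicate 2 at 61 dpf. Without any other library it was between 4 and 6. hbba1 was called in all 12 of these fits. The count of 3 in wild type was 0 without replicate 1 or 2 at 47 dpf or replicate 3 at 61 dpf, 1 without replicate 3 at 47 dpf, 5 without replicate 2 at 61 dpf, and 3 without replicate 1 at 61 dpf. In wild type 325 of all genes were called, and 34, 16 and 93 without replicate 1, 2 and 3 at 47 dpf. At 61 dpf it was 51 without replicate 3 and 848 without replicate 1. The count of 0 in mutants was 2 without replicate 3 at 47 dpf and 0 without any other library. In mutants 7 of all genes were called without replicate 3 at 47 dpf.

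**Figure D2:**
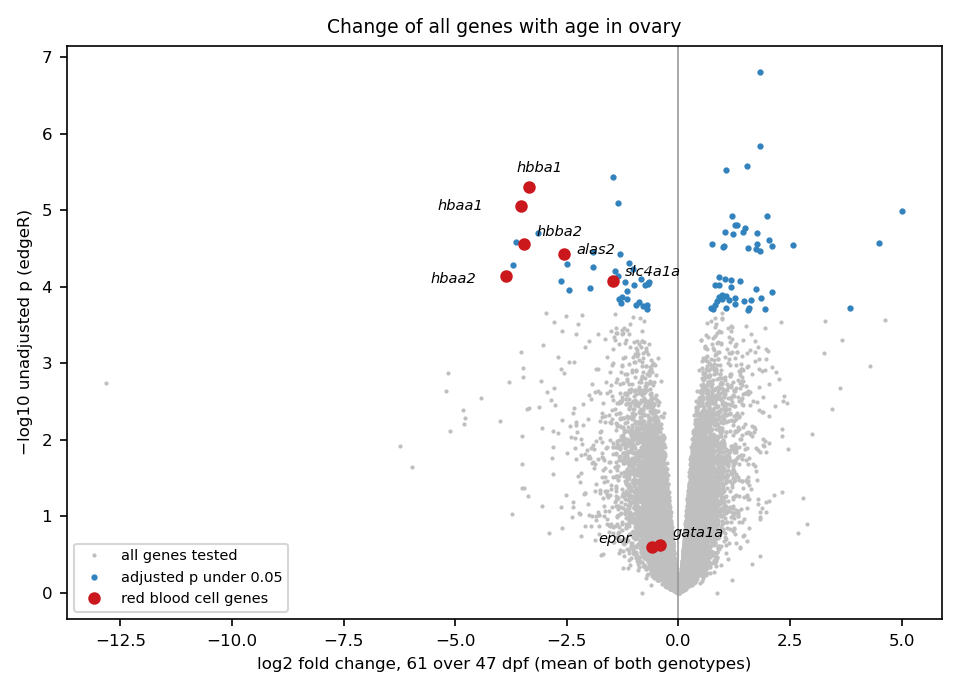
Each point is 1 of the 21407 genes tested, with the log2 fold change of 61 over 47 dpf (mean of both genotypes) on the horizontal axis and −log10 of the unadjusted edgeR p on the vertical axis; blue points have an adjusted p under 0.05 and red points are the 8 red blood cell genes. The 4 globins, alas2 and slc4a1a lie among the called genes on the left, and gata1a and epor lie near the bottom, with log2 fold changes of -0.42 and -0.59.

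The summed alpha copies had a log2 fold change with age of -3.53 ± 0.48 and the summed beta copies one of -3.34 ± 0.43 over both genotypes (edgeR adjusted p of 0.0228 and 0.0177). hbaa1 held 97.7% to 100% of the summed hbaa1 and hbaa2 counts of a library. The row si:ch211-5k11.8, described below, is not in that sum and had more counts than hbaa1 in every library. hbaa1 was at 9.48, 20.1 and 23.1 CPM in mutants and 3.66, 17.8 and 14.1 CPM in wild type at 61 dpf. At 47 dpf it was at 195, 355 and 58.4 CPM in mutants and 179, 110.1 and 118 CPM in wild type. The ages did not overlap in either genotype, and the genotypes overlapped at each age. Its log2 fold change with age was -3.53 ± 0.48 over both genotypes (edgeR adjusted p = 0.0220), and the call was lost without wild type replicate 1 at 47 dpf (0.0506) or mutant replicate 1 at 61 dpf (0.0503).

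hbba1 held 98.8% to 99.8% of the summed hbba1 and hbba2 counts. It was at 19.7, 32.0 and 36.0 CPM in mutants and 10.5, 33.9 and 20.3 CPM in wild type at 61 dpf. Its levels at 47 dpf were 400.4, 435 and 90.9 CPM in mutants and 319, 126 and 178 CPM in wild type, again with no overlap between the ages. Its log2 fold change with age was -3.34 ± 0.43 (edgeR adjusted p = 0.0176). The summed hbaa1 and hbaa2 counts per summed hbba1 and hbba2 count were 0.585 ± 0.0869 in mutants and 0.525 ± 0.176 in wild type at 61 dpf, and 0.650 ± 0.164 in mutants and 0.704 ± 0.159 in wild type at 47 dpf (SD, n = 3 each). The sums hold these named copies only, so this ratio need not be that of all alpha to all beta globin RNA. None of the 4 comparisons of this ratio went beyond the spread between libraries (exact two-sided permutation p of 0.7 for mutant against wild type at each age, 0.3 for age in wild type and 0.4 for age in mutants, where 3 against 3 libraries cannot go below 0.1).

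The other copy of each chain had few counts. hbaa2 had 2, 2 and 2 estimated counts in the mutant libraries and 0, 9 and 3 in the wild-type libraries at 61 dpf. At 47 dpf hbaa2 had 53, 32 and 16 in mutants and 106, 31 and 34 in wild type. hbba2 had 1, 3 and 3 counts in mutants and 2, 9 and 2 in wild type at 61 dpf. At 47 dpf it had 62, 23 and 17 in mutants and 64, 27 and 32 in wild type. Most of the libraries at 61 dpf were thus at or under the limit that a count of 0 allows, while all 6 at 47 dpf were above it. The fitted log2 fold changes with age, -3.87 ± 0.66 for hbaa2 (edgeR adjusted p = 0.0351) and -3.46 ± 0.53 for hbba2 (0.0220), rest on these few counts. The call of hbaa2 was kept without wild type replicate 3 at 47 dpf, mutant replicate 3 at 47 dpf or wild type replicate 1 or 2 at 61 dpf, and was lost without any 1 of the other 8 libraries (edgeR adjusted p 0.0545 to 0.0949). The call of hbba2 was lost without wild type replicate 1 (0.0593) or 2 (0.0564) at 47 dpf, mutant replicate 2 at 47 dpf (0.0685), wild type replicate 3 at 61 dpf (0.0567), or mutant replicate 1 (0.0699) or 2 (0.0707) at 61 dpf. The estimated counts of hbaa2 and hbba2 were whole numbers in every library, so they show no reads divided with hbaa1 or hbba1.

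alas2, the heme synthesis enzyme of red cells, fell with the globins. It was at 0.408, 0.651 and 0.890 CPM in mutants and 0.811, 1.84 and 1.63 CPM in wild type at 61 dpf. At 47 dpf it was at 7.32, 9.40 and 2.18 CPM in mutants and 7.68, 2.82 and 4.73 CPM in wild type. The ages did not overlap in either genotype. Over both genotypes alas2 was 5.90-fold lower at 61 dpf (log2 fold change -2.56 ± 0.40, edgeR adjusted p = 0.0230). That call was lost without wild type replicate 1 at 47 dpf (0.0618), mutant replicate 2 at 47 dpf (0.0685), wild type replicate 3 at 61 dpf (0.0567), or mutant replicate 1 (0.0760) or 2 (0.0707) at 61 dpf. The edgeR log2 fold change was -3.28 ± 0.59 in mutants (adjusted p = 0.598) and -1.84 ± 0.55 in wild type (adjusted p = 0.0973), and these 2 values did not differ beyond their error (-1.44 ± 0.78, adjusted p = 0.639, unadjusted p = 0.0908).

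slc4a1a, the band 3 exchanger, also fell with age, with a smaller fold change than the globins; that difference between genes was not tested. It was at 3.87, 4.51 and 5.90 CPM in mutants and 2.27, 3.26 and 1.59 CPM in wild type at 61 dpf. The levels at 47 dpf were 9.47, 12.1 and 6.11 CPM in mutants and 13.4, 7.38 and 7.44 CPM in wild type. Within each genotype all libraries at 61 dpf lay below those at 47 dpf, by a small margin in mutants. Its log2 fold change with age over both genotypes was -1.47 ± 0.25 (2.78-fold lower, edgeR adjusted p = 0.0351). In wild type it was -1.99 ± 0.37 (edgeR adjusted p = 0.0294), a call that was lost without wild type replicate 1 (0.0935) or 2 (0.0674) at 47 dpf or replicate 3 at 61 dpf (0.0734). In mutants it was -0.96 ± 0.35 (edgeR adjusted p = 1.0). Over both genotypes its call was kept without replicate 3 of either genotype at 47 dpf or wild type replicate 1 or 2 at 61 dpf, and was lost without any 1 of the other 8 libraries (edgeR adjusted p 0.0564 to 0.0967).

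gata1a and epor, the transcription factor and the receptor, had 8.5 to 37.3 and 4 to 20 estimated counts per library. gata1a was at 0.535, 0.866 and 0.474 CPM in mutants and 0.396, 0.536 and 0.726 CPM in wild type at 61 dpf. Levels at 47 dpf were 1.27, 0.993 and 0.668 CPM in mutants and 1.12, 0.396 and 0.446 CPM in wild type. epor was at 0.530, 0.327 and 0.278 CPM in mutants and 0.297, 0.189 and 0.215 CPM in wild type at 61 dpf. At 47 dpf it was at 0.650, 0.844 and 0.175 CPM in mutants and 0.800, 0.190 and 0.153 CPM in wild type. Ages and genotypes overlapped for both genes. The log2 fold change with age over both genotypes was -0.42 ± 0.34 for gata1a (edgeR adjusted p = 0.546) and -0.59 ± 0.49 for epor (0.560).

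No difference between mutants and wild type of the same age passed the test in any of the 8 genes. At 61 dpf edgeR called 0 of the 8 and 1.82% of all genes. There 1 of the 8 and 25.3% of all genes had an unadjusted p under 0.05, and DESeq2 called 0 of the 8 and 11.2% of all genes. At 47 dpf edgeR called 0 of the 8 and 0.0888% of all genes. There 0 of the 8 and 6.92% of all genes had an unadjusted p under 0.05, and DESeq2 called 0 of the 8 and 0.808% of all genes. For the difference between the genotype effects at the 2 ages, edgeR called 0 of the 8 and 0% of all genes. There 0 of the 8 and 8.46% of all genes had an unadjusted p under 0.05, and DESeq2 called 0 of the 8 and 0.439% of all genes. The summed globins averaged 47.0 ± 15.7 CPM in mutants and 33.8 ± 19.2 CPM in wild type at 61 dpf, a log2 fold change of 0.48 ± 0.57 (edgeR adjusted p = 0.632). They averaged 514 ± 330 CPM in mutants and 347 ± 140.0 CPM in wild type at 47 dpf, a log2 fold change of 0.55 ± 0.56 (edgeR adjusted p = 0.957). Both differences were smaller than the spread within the mutant group (exact two-sided permutation p = 0.5 at each age).

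slc4a1a was the gene with the unadjusted p under 0.05 at 61 dpf. Its 3 mutant libraries (3.87 to 5.90 CPM) lay above its 3 wild-type libraries (1.59 to 3.26 CPM), as was the case in that direction for 15.6% of all genes tested. The log2 fold change was 1.003 ± 0.36 with an edgeR adjusted p of 0.118. At 47 dpf it was -0.03 ± 0.35, and the change between the ages was 1.03 ± 0.50 (edgeR adjusted p = 0.606, unadjusted p = 0.0606). alas2 pointed the other way at 61 dpf, with a log2 fold change of -1.13 ± 0.59 (edgeR adjusted p = 0.248) and overlapping groups.

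**Figure D3:**
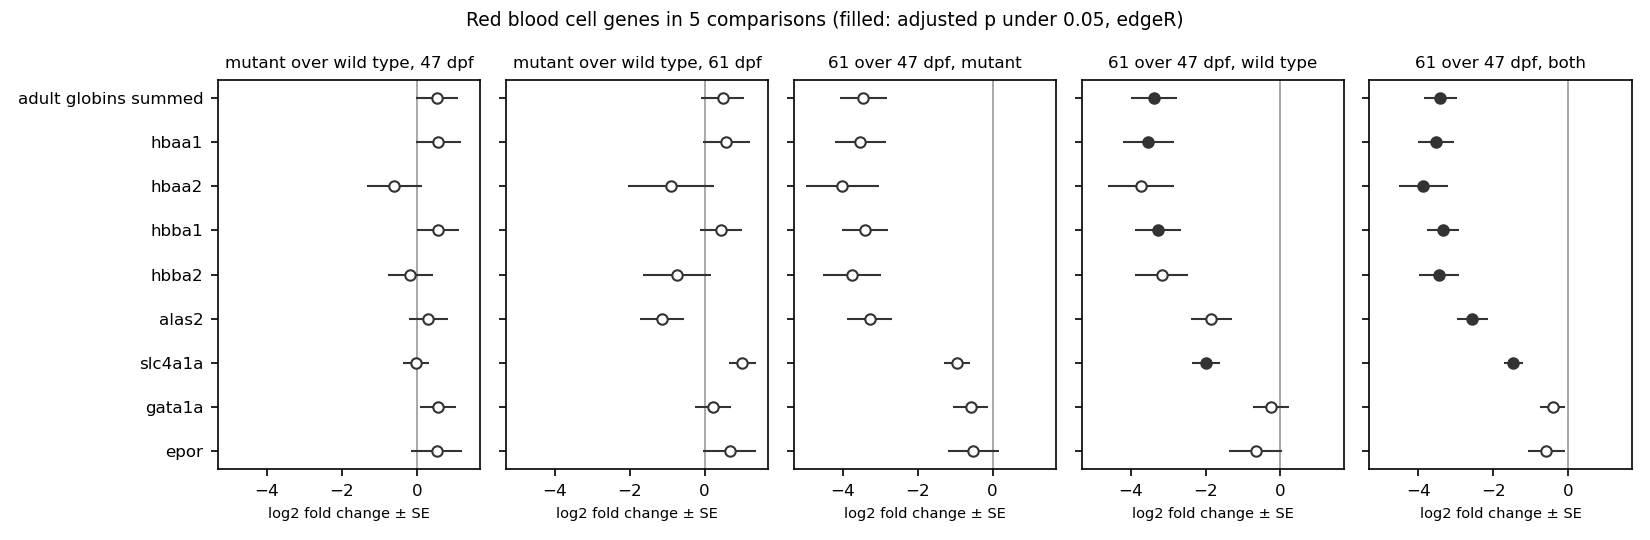
Log2 fold changes with their standard errors for the summed adult globins and each of the 8 genes, for mutant over wild type at 47 and at 61 dpf and for 61 over 47 dpf in mutants, in wild type and over both genotypes; filled points have an edgeR adjusted p under 0.05. No point is filled in the genotype comparisons, where slc4a1a at 61 dpf (1.003) is the farthest above 0 of the 8, and the globin values with age lie between -4.02 and -3.17.

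Counts of alas2 and slc4a1a relative to globin counts compare red cell genes within a library, which leaves the scaling between libraries out. Counts of alas2 per 1000 summed globin counts were 13.8 ± 1.26 in mutants and 46.4 ± 11.03 in wild type at 61 dpf, and 12.8 ± 1.43 in mutants and 14.3 ± 2.14 in wild type at 47 dpf (SD, n = 3 each). Wild type at 61 dpf thus stood apart: its 3 libraries had 35.1 to 57.1, and the other 9 libraries 11.85 to 15.8. The ratio in mutants was 0.297 times that of wild type at 61 dpf, and in wild type the ratio at 61 dpf was 3.24 times that at 47 dpf, each with an exact two-sided permutation p of 0.1, the smallest that 3 against 3 libraries allow. The other 2 comparisons, mutant against wild type at 47 dpf and age in mutants, each gave an exact permutation p of 0.4. This ratio was chosen after the values had been seen, and it rests on 10 to 39 estimated alas2 counts per library at 61 dpf.

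Counts of slc4a1a per 1000 globin counts were 106 ± 23.8 in mutants and 89.2 ± 61.7 in wild type at 61 dpf, and 23.9 ± 14.4 in mutants and 27.5 ± 3.18 in wild type at 47 dpf. The ratio was higher at 61 dpf in all 3 libraries of each genotype (exact two-sided permutation p = 0.1 in each), and mutant and wild type did not differ beyond their spread at either age (p = 0.7 at each). In wild type at 61 dpf it ran up to 160 in replicate 1, the library with the least globin RNA of all.

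**Figure D4:**
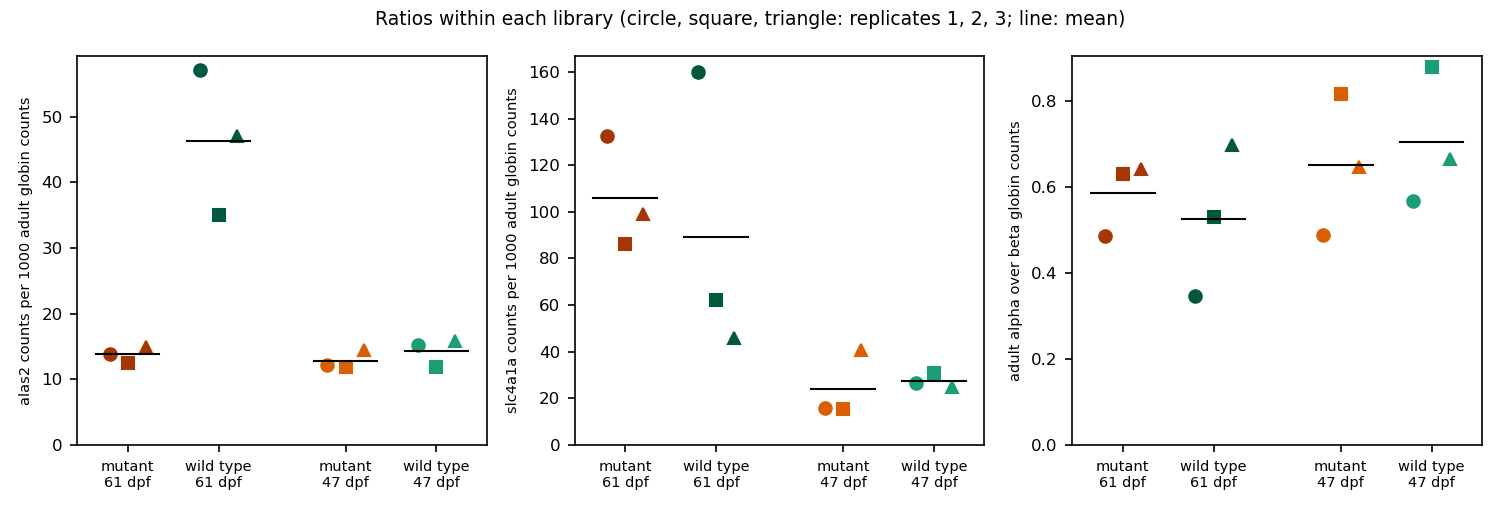
Ratios of estimated counts within each library: alas2 per 1000 adult globin counts, slc4a1a per 1000 adult globin counts, and adult alpha (hbaa1 and hbaa2) over beta (hbba1 and hbba2) globin counts; symbols are replicates 1, 2 and 3 and lines are group means. The alas2 ratio of the 3 wild-type libraries at 61 dpf (35.1 to 57.1) lies above that of the other 9, the slc4a1a ratio is higher at 61 than at 47 dpf in both genotypes, and the chain ratio overlaps between all groups.

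Of the 6 genes whose level followed the summed globins most closely, 3 are red cell genes. The ranking took in 12794 genes whose log2 CPM averaged 1 or more and whose symbol is no clone or locus name. In it, alas2 had the highest Pearson r of log2 CPM with the sum over the 12 libraries (0.918), slc4a1a the next (0.902), and cahz, a carbonic anhydrase of zebrafish red cells, the one after (0.890). ube2q1, a ubiquitin-conjugating enzyme, followed with 0.885, sox8b, a transcription factor, with 0.884, and cd151, a tetraspanin, with 0.867. By its r gata1a would stand in place 943 (0.546) and epor in place 1998 (0.423). The libraries fall into 2 clusters by age, so these values are only a description of likeness. Over the 6 libraries at 61 dpf alone r was 0.225 for alas2, 0.573 for slc4a1a and 0.517 for cahz, and over the 6 at 47 dpf alone it was 0.978, 0.885 and 0.847 for the same genes. For ube2q1, sox8b and cd151 it was 0.543, 0.638 and 0.688 at 61 dpf. At 47 dpf it was 0.412, 0.601 and 0.284 for these. The red cell genes thus had the higher r at 47 dpf and not at 61 dpf. cahz was at 5.03 ± 1.78 CPM in mutants and 3.49 ± 2.23 CPM in wild type at 61 dpf, and at 12.1 ± 2.41 CPM in mutants and 10.04 ± 2.38 CPM in wild type at 47 dpf, a log2 fold change with age of -1.39 ± 0.29 over both genotypes (edgeR adjusted p = 0.0653).

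A row named si:ch211-5k11.8, which may share reads with hbaa1, had a higher r with the summed globins than any of these. In the RefSeq gene order of the GRCz12tu assembly it follows hbba1 directly, after hbaa2, hbba2, ba1l and hbaa1. It was at 17.3, 36.4 and 40.9 CPM in mutants and 8.62, 36.3 and 29.4 CPM in wild type at 61 dpf. Its 47 dpf levels were 367, 465 and 86.5 CPM in mutants and 289.8, 137 and 163 CPM in wild type. Its r with the sum was 0.996 over the 12 libraries, 0.979 at 61 dpf and 0.999 at 47 dpf. Its log2 fold change with age over both genotypes was -3.14 ± 0.46 (edgeR adjusted p = 0.0220), a call lost without wild type replicate 1 at 47 dpf (0.0542), mutant replicate 2 at 47 dpf (0.0685), wild type replicate 3 at 61 dpf (0.0549), or mutant replicate 1 (0.0618) or 2 (0.0646) at 61 dpf. The files give this row no further annotation, it was picked after its values were seen, and adding it to the sum moved the sum's fall with age to -3.30 (edgeR adjusted p = 0.0246). Where not whole, its estimated counts and those of hbaa1 added to whole numbers in every library. Examples are 7241.8 and 4467.2 in wild type replicate 1 and 10737.2 and 5709.8 in mutant replicate 1, both at 47 dpf. Reads may thus have been divided between these rows, which was not tested. As hbaa1 is in the sum, the r of this row is not independent of it. In the same gene order gata1a shares the chromosome of adamts9, with 100 protein-coding genes between them, and the other 7 genes lie on other chromosomes.

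Globins of earlier life stages were barely detected, apart from hbae5. Of 11 embryonic and larval globin genes looked for, 9 had a row and 1, hbae5, had enough counts to be tested. hbae5 was at 8.75 ± 4.03 CPM in mutants and 11.2 ± 2.62 CPM in wild type at 61 dpf, and at 5.75 ± 2.64 CPM in mutants and 13.7 ± 2.81 CPM in wild type at 47 dpf (SD, n = 3 each). Its log2 fold change with age was 0.61 in mutants (edgeR adjusted p = 1.0) and -0.30 in wild type (0.683), and for mutants against wild type it was -0.35 at 61 dpf (0.605) and -1.26 at 47 dpf (0.430). All of the other 8 rows stayed at or under 0.64 CPM in each library, among them hbbe1.1 and hbae1.1, which follow the adult genes in the cluster.

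Globins that are not hemoglobin chains were not called by age in edgeR, which called 0.43% of all genes over both genotypes. In wild type it called 1.52% of all genes by age and in mutants 0%. Myoglobin (mb), neuroglobin (ngb), cytoglobins (cygb1 and cygb2), globin X (xgb) and androglobin (adgb) were all tested. edgeR called 1 of these 6, cygb2, in 1 comparison, mutants against wild type at 61 dpf, where it called 1.82% of all genes. cygb2 was higher in mutants at 61 dpf, at 0.591 ± 0.125 CPM against 0.072 ± 0.063 CPM in wild type, a log2 fold change of 3.36 ± 0.77 (edgeR adjusted p = 0.0494, DESeq2 adjusted p = 0.0103) on 0 to 2.4 estimated counts per wild-type library. The call was lost without wild type replicate 1 (0.0668) or 3 (0.0868) or without mutant replicate 1 (0.103), 2 (0.109) or 3 (0.157) at 61 dpf. xgb was at 12.6 ± 2.60 CPM in mutants and 15.4 ± 5.84 CPM in wild type at 61 dpf and 15.7 ± 1.02 CPM in mutants and 18.0 ± 7.67 CPM in wild type at 47 dpf. ngb, which is known from nerve cells, was at 2.95 ± 1.69 CPM in mutants and 1.57 ± 0.342 CPM in wild type at 61 dpf, and at 3.43 ± 2.61 CPM in mutants and 5.70 ± 1.95 CPM in wild type at 47 dpf (log2 fold change with age in wild type -1.85, edgeR adjusted p = 0.126). DESeq2 called ngb as lower with age in wild type (log2 fold change -1.84, adjusted p = 0.0365), its only call by age among the 6. It called 3.5% of all genes as lower there. The group means of cygb1 lay between 11.7 and 15.5 CPM, those of adgb between 1.24 and 2.97 CPM and those of mb between 0.358 and 0.682 CPM.

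None of the other red cell genes on the lists was called by age over both genotypes in edgeR, which called few of all genes there (0.43%). The lists held 81 other genes of heme synthesis, iron handling, red cell membrane and cytosol, erythroid transcription and erythropoietin signalling, many of which are also used by other cells. Over both genotypes edgeR called 0 of them, where 0.43% of all genes were called. The number was 4 without replicate 1 of wild type at 61 dpf, where 463 of all genes were called. It was 1 without replicate 3 of that group, where 32 of all genes were called. With all libraries 19 of the 81 and 16.9% of all genes had an unadjusted p under 0.05 over both genotypes, and DESeq2 called 4 of the 81 and 4.22% of all genes. In wild type edgeR called 2, where 1.52% of all genes were called. That number was 0 without any 1 of the 3 libraries at 47 dpf, 1 without replicate 3 and 3 without replicate 1 at 61 dpf. Of all genes, 34, 16 and 93 were called without replicate 1, 2 and 3 at 47 dpf. At 61 dpf 51 of all genes were called without replicate 3 and 848 without replicate 1. An unadjusted p under 0.05 was reached in wild type by 21 of the 81 and 21.6% of all genes, and DESeq2 called 8 of the 81 and 7.8% of all genes. In mutants edgeR called 0 of the 81 and 0% of all genes, 7 of the 81 and 3.83% of all genes had an unadjusted p under 0.05, and DESeq2 called 1 of the 81 and 0.107% of all genes. In wild type tfr1b, a transferrin receptor that brings iron into cells, fell with age (23.6 ± 8.04 CPM at 61 dpf, against 54.2 ± 7.76 CPM at 47 dpf; log2 fold change -1.20, edgeR adjusted p = 0.0341). zfpm1, a cofactor of GATA factors, rose (20.2 ± 5.71 CPM at 61 dpf, against 7.64 ± 1.36 CPM at 47 dpf; log2 fold change 1.40, edgeR adjusted p = 0.0414). The call of tfr1b was lost without wild type replicate 1 (0.0987), 2 (0.122) or 3 (0.0579) at 47 dpf or replicate 3 at 61 dpf (0.0540), and that of zfpm1 without replicate 1 (0.144), 2 (0.111) or 3 (0.0826) at 47 dpf or replicate 2 (0.0594) or 3 (0.0967) at 61 dpf.

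By list, the median log2 fold change over both genotypes was 0.02 for 16 heme synthesis genes, -0.20 for 14 iron genes, -0.16 for 23 membrane and cytosol genes, -0.26 for 16 erythroid transcription factors and 0.09 for 16 erythropoietin signalling genes, where it was -2.95 for the 8 genes described above and 0.00 for all genes tested. Members of the 8 that belong to these lists are counted in them.

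In mutants against wild type at 61 dpf, 2 of the 81 other genes were called in edgeR, both higher, where 1.82% of all genes were called. Leaving out wild type replicate 2 gave 7, and leaving out wild type replicate 3 or any 1 of the mutant libraries gave 0. Calls over all genes moved too, from 390 to 1639 without wild type replicate 2 and to 58 without wild type replicate 3. Without mutant replicate 1 they fell to 36. With all libraries an unadjusted p under 0.05 was reached by 18 of the 81 and 25.3% of all genes, and DESeq2 called 7 of the 81 and 11.2% of all genes. slc4a1b, the other zebrafish copy of the band 3 gene, was at 7.69 ± 0.304 CPM in mutants and 3.90 ± 0.403 CPM in wild type (log2 fold change 0.98 ± 0.21, edgeR adjusted p = 0.0440). lmo2, an adaptor protein of erythroid and endothelial transcription complexes, was at 6.66 ± 2.46 CPM in mutants and 1.90 ± 1.07 CPM in wild type (log2 fold change 1.82 ± 0.40, edgeR adjusted p = 0.0441). Both calls were lost without wild type replicate 1 or 3 or without any 1 of the 3 mutant libraries at 61 dpf, with edgeR adjusted p of 0.0614 to 0.139 for slc4a1b and 0.0755 to 0.162 for lmo2. At 47 dpf the log2 fold changes of the same genes were 0.01 ± 0.21 and 0.18 ± 0.38, and the difference between the ages was not called for either (edgeR adjusted p = 0.451 for slc4a1b and 0.489 for lmo2).

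Heme synthesis genes mostly had lower levels in mutants at 61 dpf, with no call in edgeR and 1 in DESeq2. Of all genes, edgeR called 1.82% and DESeq2 11.2% in this comparison. The fold change was below 0 for 13 of the 16, with a median of -0.49, where the median of all genes was 0.01, and 7 of the 16 had an unadjusted p under 0.05 on the lower side, as 12.2% of all genes did. The 3 with the smallest p were ppox (log2 fold change -0.92, edgeR adjusted p = 0.0727), hmbsb (-0.71, 0.129) and alad (-0.85, 0.132), which encode enzymes that follow the alas step of the pathway. Without wild type replicate 2 at 61 dpf edgeR called ppox (adjusted p = 0.0365), alad (0.0245) and, from the iron list, glrx5 (0.0406), all lower. In that fit 1639 of all genes were called. With another library left out the edgeR adjusted p rose as far as 0.208 for ppox, 0.368 for alad and 0.332 for glrx5. ppox was at 13.1 ± 1.05 CPM in mutants and 24.9 ± 6.94 CPM in wild type at 61 dpf. Of the other lists at that age, the smallest p belonged to tfr1b (1.0, edgeR adjusted p = 0.0527) and hephl1a, a copper ferroxidase (0.93, 0.0585), among iron genes, and to epoa, the erythropoietin ligand (-0.73, 0.0855), and vhl, which targets hypoxia-inducible factors for degradation (-1.24, 0.0856), in erythropoietin signalling. epoa was at 11.5 ± 0.811 CPM in mutants and 19.1 ± 2.74 CPM in wild type at 61 dpf. DESeq2 called ppox (adjusted p = 0.0137), tfr1b (0.00621), hephl1a (0.00787), epoa (0.0181) and vhl (0.0198), each in the same direction as edgeR. These are among its 7 calls in the 81 other genes, no larger a share than its 11.2% of all genes. Without wild type replicate 2 edgeR called tfr1b (0.0435) and hephl1a (0.0416), and without wild type replicate 1 it called tfr1b (0.0350). With another library left out their edgeR adjusted p rose as far as 0.164 for tfr1b and 0.180 for hephl1a. Others named by the smallest p were glrx5 (-0.41, 0.166), epb41a (-0.45, 0.154), blvrb (-0.74, 0.180), gata2a (0.53, 0.208), gfi1aa (1.09, 0.234) and jak2b (-0.34, 0.289), each with its log2 fold change and edgeR adjusted p. The median log2 fold changes were 0.16 for iron genes, 0.07 for membrane and cytosol genes, 0.39 for transcription factors and -0.06 for erythropoietin signalling. Under upper-quartile scaling the median of all genes itself moved to 0.20 in this comparison, and edgeR then called tfr1b (0.0313) and hephl1a (0.0317).

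In mutants against wild type at 47 dpf, 0 of the 81 other genes were called in edgeR, where 0.0888% of all genes were. An unadjusted p under 0.05 was reached by 12 of the 81 and 6.92% of all genes, and DESeq2 called 1 of the 81 and 0.808% of all genes. The smallest edgeR p belonged to rhag, which encodes the Rh-associated glycoprotein of the red cell membrane. It was at 7.20 ± 2.92 CPM in mutants and 1.27 ± 0.483 CPM in wild type at 47 dpf (log2 fold change 2.49 ± 0.64, edgeR adjusted p = 0.272, and called in DESeq2 with an adjusted p of 0.0131). At 61 dpf rhag was at 0.885 ± 0.239 CPM in mutants and 2.08 ± 2.06 CPM in wild type. kel, a blood group endopeptidase, was at 3.02 ± 1.16 CPM in mutants and 1.16 ± 0.421 CPM in wild type at 47 dpf (log2 fold change 1.38, edgeR adjusted p = 0.391). Of the other genes with the smallest p in their list, steap4, a metalloreductase, had a log2 fold change of 2.21 (edgeR adjusted p = 0.484), gata2a, a GATA factor of blood precursors, 0.75 (0.481), and socs3a, a cytokine signalling inhibitor, 1.62 (0.562). For another 10 (tmod1, hephl1a, slc40a1, zfpm1, myb, stat5a, jak2a, abcb10, fech and slc25a38b) the log2 fold changes lay between -0.38 and 0.87, with edgeR adjusted p of 0.515 to 0.946. The list medians at 47 dpf lay between 0.03 and 0.22, and the median of all genes was 0.02.

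Markers of other cells of blood and vessels did not show a fall as large as that of the globins. The summed level of 20 genes of endothelial cells, which line blood vessels, was 132 to 142 CPM in mutants and 107 to 133 CPM in wild type at 61 dpf. The same sum was 147 to 170 CPM in mutants and 120.0 to 132 CPM in wild type at 47 dpf. The mutant libraries at 61 dpf thus lay below those at 47 dpf, and the ages overlapped in wild type. The median log2 fold change of the 20 genes with age over both genotypes was 0.08. Of the 20, 0 were called in edgeR, where 0.43% of all genes were. An unadjusted p under 0.05 was reached by 3 of the 20 and 16.9% of all genes. The defining gene cdh5, picked after its values were seen, was at 22.5 ± 5.32 CPM in mutants and 21.2 ± 5.02 CPM in wild type at 61 dpf. At 47 dpf it was at 19.6 ± 3.91 CPM in mutants and 17.7 ± 2.61 CPM in wild type. Its means were thus higher at 61 dpf, where the means of the endothelial sum were lower. Thrombocyte genes, 8 of which had a row, summed to 8.19 to 9.73 CPM in mutants and 6.15 to 6.69 CPM in wild type at 61 dpf. At 47 dpf they summed to 7.45 to 9.19 CPM in mutants and 6.95 to 9.15 CPM in wild type. The ages overlapped in mutants, and in wild type the libraries at 61 dpf lay below those at 47 dpf.

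Macrophage and neutrophil genes, 16 in all, summed to 184 to 200.05 CPM in mutants and 76.9 to 116 CPM in wild type at 61 dpf, and to 145 to 313 CPM in mutants and 63.5 to 98.7 CPM in wild type at 47 dpf, so they separated the genotypes and not the ages. Skeletal muscle genes reached 430.3 CPM in mutant replicate 2 and 28.2 CPM in mutant replicate 3 at 47 dpf and 54.7 CPM in wild type replicate 3 at 47 dpf, against 15.5 to 26.9 CPM in the 6 libraries at 61 dpf. Mutant replicate 1 (18.8 CPM) and wild type replicates 1 (16.4 CPM) and 2 (16.6 CPM) at 47 dpf lay within that range. The median log2 fold change of the muscle genes with age over both genotypes was -2.29, with 13 of 15 below 0. Of the 15, 0 were called in edgeR, where 0.43% of all genes were. An unadjusted p under 0.05 on the lower side was reached by 8 of the 15 and by 1730 of the 21407 genes tested. Without mutant replicate 2 at 47 dpf the fall of the summed globins over both genotypes was -3.18 (edgeR adjusted p = 0.0480). Liver genes were at 292 CPM in mutant replicate 1 at 47 dpf and at 31.9 to 100.4 CPM in the other 11 libraries, and without that library the fall was -3.34 (edgeR adjusted p = 0.0314). Their median log2 fold change with age was -0.59, with 15 of 16 below 0, and that of 13 exocrine pancreas genes was -0.59, with 12 below 0; edgeR called 0 of either. Without mutant replicate 3 at 47 dpf, the library with 2315 CPM of exocrine pancreas genes, it was -3.62 (edgeR adjusted p = 0.0047). For macrophage, muscle, liver and pancreas genes, their part in the result was not tested.

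**Figure D5:**
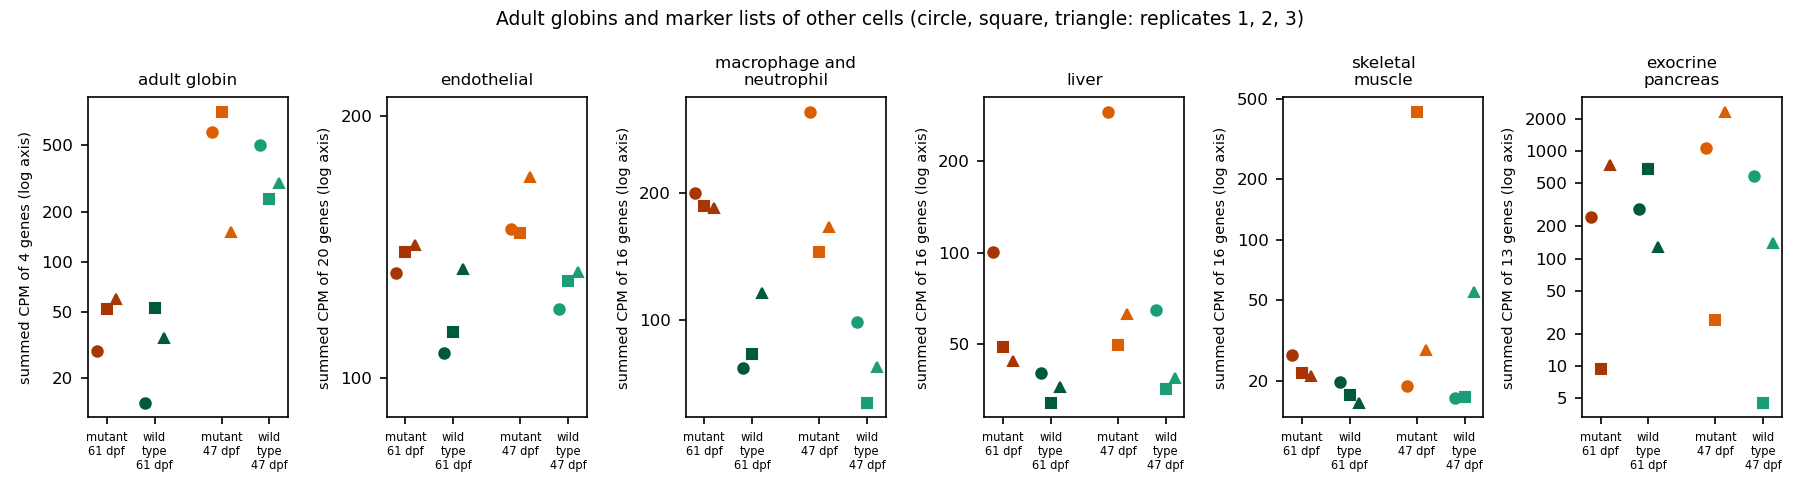
Summed CPM, on a log axis, of the 4 adult globins and of marker lists of endothelial cells, macrophages and neutrophils, liver, skeletal muscle and exocrine pancreas in each library; symbols are replicates 1, 2 and 3. The globin sum is lower at 61 than at 47 dpf in both genotypes, the endothelial sum stays between 107 and 170 CPM throughout, the macrophage and neutrophil sum is higher in mutants at both ages, single libraries stand out for liver and muscle, and the pancreas sum varies widely within every group.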

How the data were processed

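Estimated counts, as the authors deposited them, came in 1 table with genes in rows and the 12 libraries in columns. Per the labels' protocols, total RNA of ovary was made into cDNA with the Tecan Ovation RNAseq kit and into libraries with the Tecan Celero EZ DNA-Seq kit. kallisto and GRCz11 are named in the submitters' processing notes; how transcripts were summed is not given in the sources used here. Of the deposited values 45.4% were not whole numbers (tolerance 1e-06). A row with a blank name (0.000113% of counts or less in any library) was not used.

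Estimated counts were rounded, filtered with filterByExpr on the 4 groups (21407 of 26171 genes kept), scaled by TMM and fitted over all 12 libraries with edgeR (4.0.16, R 4.3.3) by quasi-likelihood. The design had a term for each of the 4 groups. Calls are at 0.05 after Benjamini-Hochberg adjustment across the table. The standard error (SE) is the log2 fold change divided by the square root of the F statistic. The summed globins were fitted in a table where the sum replaces the 4 copies. The test was tried on simulated data. Ratios and the globin sum were compared by exact two-sided permutation tests (scipy 1.17.1).

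Alternatives were median-of-ratios and upper-quartile scaling, no filter, DESeq2 (1.42.0), a replicate block, only the libraries compared, and leaving out each library. Deviations of libraries with the same replicate number had correlations of -0.20 to 0.25 over the pairs. With 3 libraries a group, these cannot decide whether the numbers pair the libraries. The genes and lists were chosen with earlier results of these data known. Besides the 8 genes, the text names every tested globin of the lists, the 3 genes with the smallest p of each red cell list in a mutant comparison and any called one, the 6 genes most like the summed globins, and, chosen after their values were seen, si:ch211-5k11.8 and cdh5. ba1l, which lies among the adult globins, was on no list, and its level is not given. The counts of hbba1 were not whole in any library, and which row shares its reads was not looked for. The age comparison over both genotypes and the ratio of alas2 to globin counts were added after the values were seen. Gene order came from the RefSeq table of GRCz12tu, another build than that of the counts, so no coordinates are given.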

Additional observations from a re-analysis of the deposited data

Results flagged for a closer look

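cygb2, which encodes a cytoglobin outside red cells, had fitted changes with age of opposite sign in the 2 genotypes, and neither was called. It was at 0.483, 0.563 and 0.728 CPM in mutants at 61 dpf, all above the 0.244, 0.432 and 0.259 CPM in mutants at 47 dpf, a log2 fold change of 0.94 ± 0.62 (edgeR adjusted p = 1.0). It was at 0, 0.113 and 0.103 CPM in wild type at 61 dpf, all below the 0.572, 0.273 and 0.138 CPM in wild type at 47 dpf, a log2 fold change of -2.53 ± 0.79 (edgeR adjusted p = 0.107). Of all genes tested, 11.6% were separated in that direction in wild type. The share separated upward in mutants is not given. DESeq2 gave cygb2 no adjusted p for the change in mutants or for the difference between the genotypes. In the edgeR test of the difference itself the log2 value was 3.48 ± 1.01 with an unadjusted p of 0.0049 and an adjusted p of 0.425, so it did not pass the threshold. The libraries held 0 to 15.5 estimated counts of this gene.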

How the results depend on the processing

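The fall of the summed globins with age over both genotypes kept its direction and its call under every alternative run, with log2 fold changes of -3.64 to -3.18. In wild type alone it was no longer called when only the libraries compared were fitted (-3.39, edgeR adjusted p = 0.0698), and leaving out 1 library gave -3.83 to -3.01. In mutants it was called by DESeq2 (-3.45, adjusted p = 6.74e-06), and leaving out 1 library gave -3.87 to -2.998. Of the 8 genes, the number called with age in wild type was 6 with DESeq2, 0 with the replicate block and 0 with only the libraries compared (0 to 5 without 1 library). In mutants it was 5 with DESeq2 (0 to 2 without 1 library), and over both genotypes 3 with the replicate block (1 to 6 without 1 library). The difference of the 2 genotype effects for the sum turned to 0.0368 with upper-quartile scaling and to 0.14 with the replicate block (-0.50 to 0.38 without 1 library). For single genes, this difference turned for hbaa1 (0.13 upper-quartile, 0.016 no filter, 0.25 replicate block, -0.41 to 0.67 without 1 library) and hbba1 (0.048 replicate block, -0.55 to 0.35 without 1 library). It also turned without 1 library for hbaa2 (-1.12 to 1.26), hbba2 (-1.07 to 0.72) and epor (-0.96 to 0.52). For mutants against wild type at 47 dpf, slc4a1a turned to 0.00895 with upper-quartile scaling (-0.27 to 0.29 without 1 library), and without 1 library the values ran over -0.0924 to 0.71 for alas2, -0.10 to 0.99 for hbaa1, -0.91 to 0.23 for hbaa2, -0.60 to 0.32 for hbba2 and -0.45 to 0.49 for cygb2. At 61 dpf they ran over -1.59 to 0.65 for hbaa2, -1.26 to 0.55 for hbba2 and -0.0908 to 0.48 for gata1a, and with age in wild type over -1.03 to 0.45 for epor and -0.52 to 0.36 for gata1a. None of these turning values was called, and the cause was not tested. The calls of slc4a1b, lmo2 and cygb2 at 61 dpf were lost with the replicate block (edgeR adjusted p of 0.0676, 0.0738 and 0.0812) and with only the libraries compared (0.127, 0.128 and 0.115). That of cygb2 was also lost with median-of-ratios scaling (0.0502) and no filter (0.0577), and that of slc4a1b with no filter (0.0554). With age in wild type, tfr1b was lost with the replicate block (0.0510), zfpm1 with upper-quartile scaling (0.0516), and both with only the libraries compared (0.153 and 0.120). The planned search of promoters for motifs was not run.

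Over all genes, called numbers moved by over 1.5 times as follows. For mutants against wild type at 61 dpf they were 390 in the design used, 989 with upper-quartile scaling, 2387 with DESeq2, 87 with the replicate block and 20 with only the libraries compared (27 to 1639 without 1 library). At 47 dpf they were 19, and 173 with DESeq2. With age they were 325 in wild type (1670 with DESeq2, 115 with the replicate block, 26 with only the libraries compared, 16 to 848 without 1 library), 0 in mutants (23 with DESeq2, 0 to 7 without 1 library) and 92 over both genotypes (904 with DESeq2, 45 with the replicate block, 9 to 463 without 1 library). The difference of the genotype effects called 0 (94 with DESeq2, 0 to 3 without 1 library). The labels do not say whether libraries with the same replicate number share anything. Whether a call lost with the block reflects a weaker effect thus cannot be told. Depth limits hbaa2, hbba2, alas2, gata1a, epor and cygb2, which had under 40 estimated counts in every library at 61 dpf.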
